A study of Mus musculus with 21 samples.

Results

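The GATA factors are represented here by 8 genes, the 6 genes of the family itself (Gata1, Gata2, Gata3, Gata4, Gata5 and Gata6) and the 2 genes of the FOG cofactors (Zfpm1, which encodes FOG1, and Zfpm2, which encodes FOG2). They were chosen by name, with earlier results of these data known. All 8 were found in both expression tables, among 27968 genes listed for sorted cells and 19321 genes with a value for total cells.

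Mouse pluripotent stem cells (PSCs) were induced in a 3D self-assembling peptide and then cultured on OP9 stromal cells or on 0.1% gelatin, and RNA-seq was used to compare the cells with those of mice. There were 7 groups with 3 libraries each. The groups 3D+OP9 and 3D+0.1% gelatin were total cells on day 5 of coculture. D5-LSKCD201+ and D5-LSKCD201- were sorted on day 5 of the 3D+OP9 culture, where LSK stands for lineage-negative, Sca-1+ and c-kit+ and CD201 is the endothelial protein C receptor. The group mESC was undifferentiated stem cells sorted by SSEA-1. The labels give 129/ola as the background of all of these, while the methods name stem cells of both 129/ola and C57BL/6 origin. C57BL/6 mice gave the in vivo groups, BM-LSKCD201+ from bone marrow at an age of 6 to 8 weeks and FL-LSKCD201+ from fetal liver at E12.5, so that culture, strain and age cannot be told apart between the PSC-derived and the in vivo groups. The study calls its sorted libraries biological replicates, but the labels do not tie libraries to cultures or animals, and p-values here measure the spread between these libraries.

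GATA factors are zinc finger proteins that bind the DNA letters GATA. GATA2 maintains blood stem and progenitor cells and acts in the endothelium from which they emerge. GATA1 drives red cell, megakaryocyte and mast cell development and takes over many of the sites of GATA2 as red cells mature, with FOG1 as its cofactor. GATA3 is best known from T cells, while GATA4, GATA5 and GATA6 act in endoderm and heart, with FOG2 as the partner of GATA4 in the heart.

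The RefSeq promoter table (build GRCm38.p6) held start sites for 5 of the 8 genes, namely Gata1, Gata2, Gata3, Gata5 and Zfpm1. The 250 bases upstream of the start are shown for Gata1, Gata2, Gata3 and Zfpm1, the members known for roles in blood cells, 5′ to 3′ on the strand of the gene. Capitals mark a match to CANNTG, the letters bound by partners of GATA factors such as TAL1, that lies wholly upstream of the start.
Gata1, chrX:7967911-7968160, minus strand: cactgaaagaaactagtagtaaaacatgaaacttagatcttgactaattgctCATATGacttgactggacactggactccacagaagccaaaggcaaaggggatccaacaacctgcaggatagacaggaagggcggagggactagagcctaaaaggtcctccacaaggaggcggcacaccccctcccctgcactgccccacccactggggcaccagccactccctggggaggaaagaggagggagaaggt
Gata2, first of 2 starts, chr6:88193641-88193890, plus strand: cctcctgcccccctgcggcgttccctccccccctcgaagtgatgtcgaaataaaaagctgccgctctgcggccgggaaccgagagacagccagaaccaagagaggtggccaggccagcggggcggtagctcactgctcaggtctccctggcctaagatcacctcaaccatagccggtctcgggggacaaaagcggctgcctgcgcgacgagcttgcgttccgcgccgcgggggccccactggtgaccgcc
Gata3, chr2:9878601-9878850, minus strand: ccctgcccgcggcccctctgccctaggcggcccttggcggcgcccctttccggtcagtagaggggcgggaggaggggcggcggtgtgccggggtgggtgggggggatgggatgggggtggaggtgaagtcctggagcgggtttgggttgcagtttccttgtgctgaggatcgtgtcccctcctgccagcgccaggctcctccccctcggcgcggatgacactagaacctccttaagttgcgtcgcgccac
Zfpm1, chr8:122281891-122282140, plus strand: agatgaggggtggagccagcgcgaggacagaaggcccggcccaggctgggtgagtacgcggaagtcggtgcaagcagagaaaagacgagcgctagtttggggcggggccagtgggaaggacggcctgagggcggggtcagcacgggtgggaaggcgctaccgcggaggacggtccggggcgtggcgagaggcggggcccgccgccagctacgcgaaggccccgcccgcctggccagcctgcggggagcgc
Windows of 300 bases, 250 before and 50 after the start, were searched on both strands for 4 letter runs around GATA and for CANNTG. Of the 6 windows of these genes, 1 held a GATA run: TGATAG in Gata3, beginning 36 bases after the start base and so outside the stretch printed. Among all 32851 promoters of the table, 11.2% held AGATAA and 8.95% held AGATAG. The run TGATAA was in 9.05% of them and TGATAG in 7.29%. At least 1 of these runs was found in 29.8%, and CANNTG in 72.3%. CANNTG occurred once in the windows of Gata1, Gata3, Gata5 and the second start of Gata2. The windows of Zfpm1 and of the first start of Gata2 held neither.

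Expression was given as FPKM, reads scaled by transcript length and library size, and the 2 tables were normalized separately, so no test was made across them. The sequencing depth is unknown. Procr, which encodes CD201, ranged from 57.9 to 61.9 FPKM among D5-LSKCD201+ libraries and from 3.02 to 3.82 among D5-LSKCD201- libraries. Ptprc, which encodes the pan-leukocyte antigen CD45, stayed between 0.305 and 0.935 FPKM in the 6 day 5 libraries, against 64.3 to 71.6 in BM-LSKCD201+ and 38.4 to 52.1 in FL-LSKCD201+. The summed level of 13 pan-hematopoietic genes was 41.5 to 47.1 FPKM in D5-LSKCD201+. All 13 were lower there than in FL-LSKCD201+ (beside 19.6% of all genes tested) and than in BM-LSKCD201+ (beside 27.2%). Of the 13, 6 averaged at least 1 FPKM in D5-LSKCD201+. Genes were tested from a mean of 0.5 FPKM over the libraries compared. Those that reached it through the in vivo group alone, such as Ptprc, had a fixed direction, and nothing is read from their count. In D5-LSKCD201- the 12 pluripotency genes summed to 3848 to 4356 FPKM against 6901 to 7466 in mESC. Of the 12, 3 were lower (beside 3.48% of all genes tested) and 1 was higher (beside 10.9%), by the calls defined below. For Nanog the level in D5-LSKCD201- was 74.1 ± 3.41 FPKM (SD, n = 3) against 73.9 ± 2.51 in mESC, while Pou5f1 was at 221 ± 57.1 against 426 ± 2.52 and Sox2 at 16.3 ± 6.57 against 67.8 ± 11.4. In 4 groups 1 library stood apart from the others: 3D+OP9 replicate 3, D5-LSKCD201- replicate 2, FL-LSKCD201+ replicate 1 and BM-LSKCD201+ replicate 1 differed from their fellow replicates by a root mean square of 0.336 to 0.455 on the log2 scale, where the remaining pair differed by 0.138 to 0.168. In such bulk samples, fewer cells of a type and less RNA per cell cannot be told apart.

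Gata2 was the highest GATA gene of both in vivo groups, and its mean levels followed an order from mESC through the day 5 cells to fetal liver and bone marrow. Gata2 (gene number 14461, chromosome 6, 88193891 to 88207032 of GRCm38, plus strand, 7 exon blocks) stood at 1.39, 1.96 and 1.15 FPKM in the mESC libraries, at 3.55, 1.96 and 4.13 in D5-LSKCD201-, and at 19.8, 21.1 and 22.1 in D5-LSKCD201+. It reached 75.0, 65.2 and 65.8 FPKM in FL-LSKCD201+ and 101, 99.96 and 102 in BM-LSKCD201+. No values overlapped between any of the 5 groups, although the lowest D5-LSKCD201- library and the highest mESC library both stood at 1.96. A gene was called when the adjusted p (limma, Benjamini-Hochberg) was under 0.05 and the absolute log2 fold change of FPKM + 1 was at least 1. On this scale Gata2 in D5-LSKCD201+ exceeded that of D5-LSKCD201- by 2.42 (SE 0.20, adjusted p 3.43e-05) and that of mESC by 3.15 (SE 0.11, adjusted p 1.11e-08). D5-LSKCD201+ in turn lay below FL-LSKCD201+, with -1.66 (SE 0.08, adjusted p 3.41e-06), and below BM-LSKCD201+, with -2.21 (SE 0.05, adjusted p 2.07e-08). The mean of D5-LSKCD201+ was thus 0.306 of the fetal liver mean and 0.208 of the bone marrow mean. The neighbours at both ends of the order differed by less than the threshold of 1: D5-LSKCD201- from mESC by 0.73 (adjusted p 0.0276) and FL-LSKCD201+ from BM-LSKCD201+ by -0.55 (adjusted p 0.00155).

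**Figure D1:**
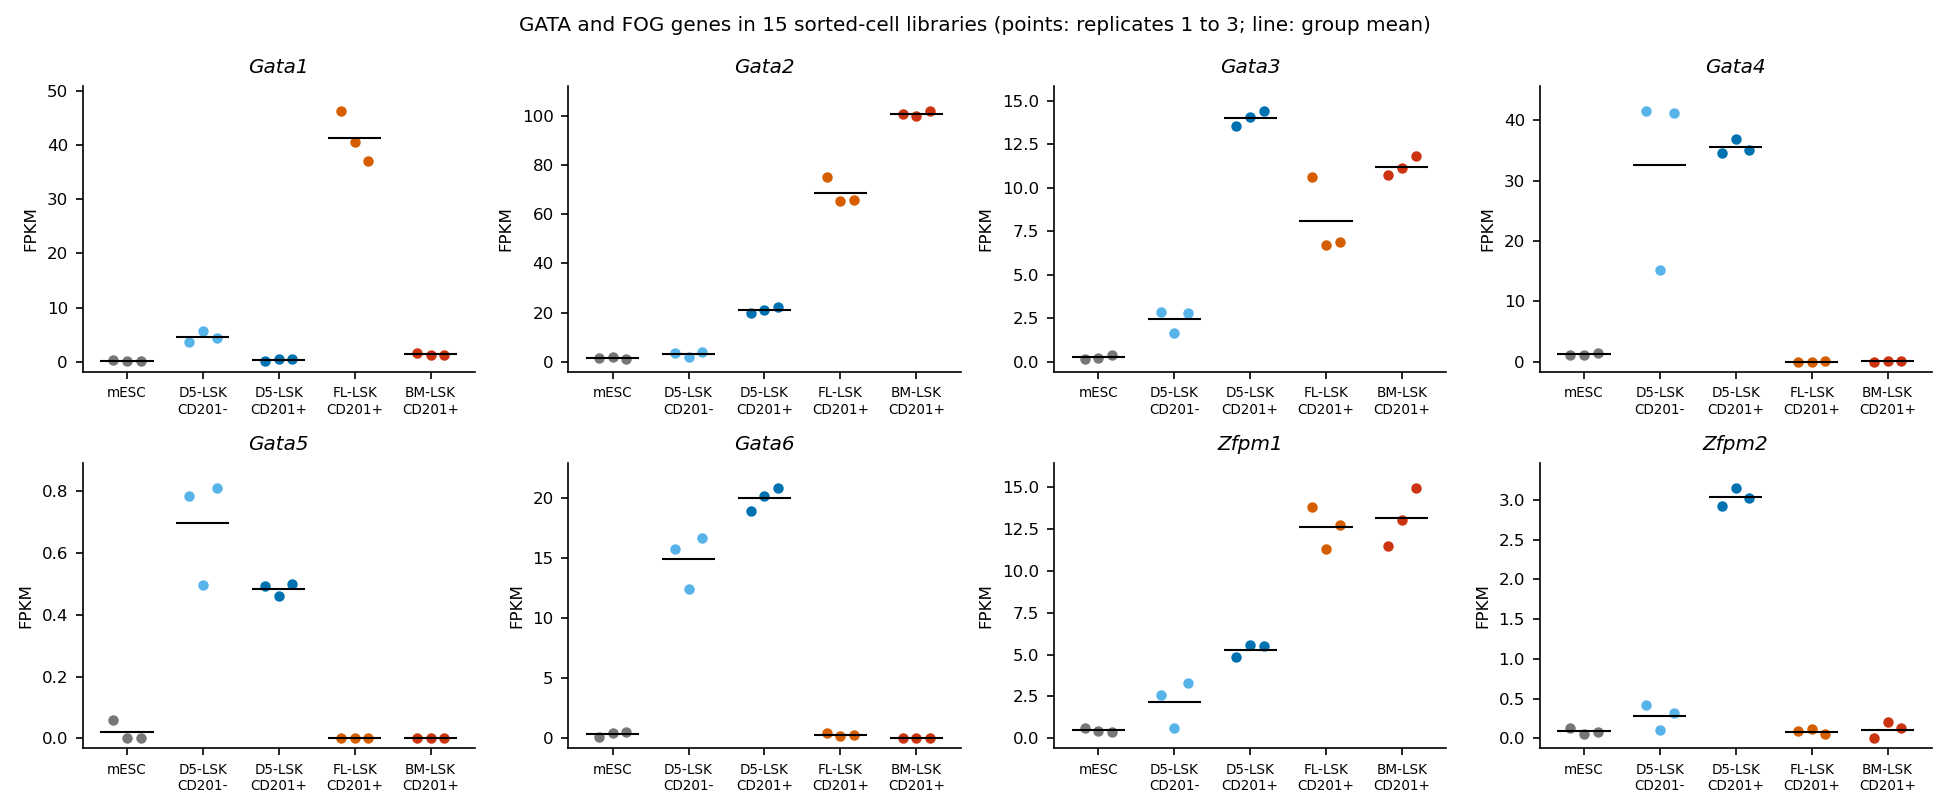
FPKM of the 8 genes (linear axes, a different scale in each panel) in 5 groups of sorted cells, with 1 point per library and a line at the group mean. Gata2 and Zfpm1 are highest in the FL and BM groups, Gata1 in FL at 37.0 to 46.3 FPKM, and Gata4, Gata5 and Gata6 in both day 5 groups.

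Gata1 had a different order, with one high group, FL-LSKCD201+. Gata1 (gene number 14460, chromosome X, 7959260 to 7978071, minus strand, 10 exon blocks) was at 46.3, 40.6 and 37.0 FPKM in FL-LSKCD201+ and at 1.54, 1.32 and 1.33 in BM-LSKCD201+. Among the cultured cells it was at 3.70, 5.66 and 4.31 FPKM in D5-LSKCD201-, at 0.155, 0.530 and 0.534 in D5-LSKCD201+ and at 0.264, 0.234 and 0.184 in mESC. The D5-LSKCD201+ and mESC values overlapped, and Gata1 was not tested between them because its mean was under the filter of 0.5 FPKM. The difference between FL-LSKCD201+ and BM-LSKCD201+ was 4.14 (SE 0.12, adjusted p 8.68e-07), a ratio of the mean FPKM of 29.7. D5-LSKCD201+ was lower than D5-LSKCD201-, with -1.98 (SE 0.17, adjusted p 4.57e-05) and lower than FL-LSKCD201+, with -4.92 (SE 0.14, adjusted p 2.88e-07). Against BM-LSKCD201+ the difference of -0.78 (SE 0.13, adjusted p 9.22e-04) did not reach the threshold of 1, and with a pseudocount of 0.1 in place of 1 it did, at -1.67. D5-LSKCD201- was higher than mESC by 2.16 (SE 0.14) and also higher than BM-LSKCD201+ by 1.20 (SE 0.15, adjusted p 1.87e-04). In every test of D5-LSKCD201+ given here, Gata1 reached the filter through the other group alone. In that of D5-LSKCD201- against mESC it did so through D5-LSKCD201- alone. The filter thus fixed these directions, and nothing is read from their adjusted p.

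Red cell genes differed between the same groups. In FL-LSKCD201+ against BM-LSKCD201+, 24 of 25 erythroid genes tested were higher and none lower, with a median of 4.23 where the median over all genes was -0.13. Of all genes tested, 7.78% were higher and 11.3% lower. All 25 erythroid genes averaged at least 1 FPKM in FL-LSKCD201+, but 12 did in BM-LSKCD201+. The direction of genes that reached the filter through FL-LSKCD201+ alone was fixed, and nothing is read from their count. Klf1, an erythroid transcription factor, was at 185 ± 25.0 FPKM (SD, n = 3) in FL-LSKCD201+ and 6.16 ± 4.28 in BM-LSKCD201+. The erythroid list summed to 23400 to 47142 FPKM in the FL-LSKCD201+ libraries, with the lowest sum in replicate 1, and to 669 to 749 in those of BM-LSKCD201+. Afp, a product of fetal hepatocytes, was at 188 to 271 FPKM in FL-LSKCD201+ and 5.88 to 9.50 in BM-LSKCD201+. The part of such cells in the Gata1 level was not tested. Between D5-LSKCD201+ and D5-LSKCD201-, 5 of 15 erythroid genes were lower and 1 was higher, and with quantile normalization 3 were lower. Of all genes tested, 13.9% were lower and 10.8% higher. Some erythroid genes, such as Rhd, reached the filter through D5-LSKCD201- alone, which fixed their direction. The embryonic beta globin Hbb-bh1 was at 15.9 ± 4.52 FPKM against 51.9 ± 27.9 (-1.56), Rhd at 0.317 ± 0.129 against 2.27 ± 0.380 (-1.31) and Gfi1b, a repressor of the red cell and megakaryocyte lines, at 0.663 ± 0.331 against 2.71 ± 0.995 (-1.15). The exception was Epor, the erythropoietin receptor, which was higher in D5-LSKCD201+, at 17.6 ± 2.02 against 3.51 ± 0.459 FPKM (2.04).

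The balance of Gata1 and Gata2 differed accordingly. The ratio of Gata1 to Gata2 FPKM was 1.04, 2.88 and 1.04 in the D5-LSKCD201- libraries, the only sorted group in which Gata1 exceeded Gata2. It was 0.617, 0.622 and 0.563 in FL-LSKCD201+ and between 0.0130 and 0.0152 in BM-LSKCD201+. In D5-LSKCD201+ it ranged from 0.00780 to 0.0251, a range that included the bone marrow values. The high D5-LSKCD201- value belonged to replicate 2, the library that stood apart from its group.

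Gata3 was highest in the day 5 CD201+ cells, unlike Gata1 and Gata2. Gata3 (gene number 14462, chromosome 2, 9857078 to 9890034, minus strand, 10 exon blocks) was at 13.5, 14.1 and 14.4 FPKM in D5-LSKCD201+, at 10.7, 11.1 and 11.8 in BM-LSKCD201+ and at 10.7, 6.74 and 6.87 in FL-LSKCD201+. It was at 2.88, 1.67 and 2.78 FPKM in D5-LSKCD201- and at 0.156, 0.241 and 0.365 in mESC. The 3 CD201+ groups lay above both other groups in every library, and the D5-LSKCD201+ libraries lay above all libraries of the in vivo groups. The lowest BM-LSKCD201+ value and the highest FL-LSKCD201+ value nearly met, at 10.7. The increase over D5-LSKCD201- was 2.14 (SE 0.15, adjusted p 1.75e-05) and that over mESC 3.58 (SE 0.09). Against mESC, Gata3 reached the filter through D5-LSKCD201+ alone, which fixed the direction. The differences from FL-LSKCD201+ (0.75, SE 0.16, adjusted p 0.00520) and from BM-LSKCD201+ (0.30, SE 0.06, adjusted p 0.00341) stayed under the threshold of 1, and FL-LSKCD201+ and BM-LSKCD201+ did not pass the test (-0.45, SE 0.17, adjusted p 0.0566). An antisense gene, Gm13256, covers 3.90% of the exonic bases of Gata3, and use of strand in the counting is not given in the sources used here.

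Genes that accompany GATA3 in lymphoid cells went in both directions. Of 6 such genes tested between D5-LSKCD201+ and D5-LSKCD201-, 1 was higher and 3 were lower, and without D5-LSKCD201- replicate 2 there were 2 higher. Of all genes tested, 10.8% were higher and 13.9% lower. Ets1, an ETS factor of lymphoid and endothelial cells, was at 64.7 ± 1.88 FPKM against 5.75 ± 0.810 (3.29). Tcf7 was at 2.01 ± 0.613 against 21.9 ± 7.09 (-2.90), Lck at 3.85 ± 0.495 against 14.8 ± 1.21 (-1.71) and Lef1 at 7.41 ± 0.432 against 25.3 ± 7.82 (-1.59).

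The gene of FOG1, the cofactor of GATA1, was highest in both in vivo groups. Zfpm1 (gene number 22761, chromosome 8, 122282141 to 122337251, plus strand, 11 exon blocks) was at 13.8, 11.3 and 12.8 FPKM in FL-LSKCD201+ and at 11.5, 13.1 and 14.98 in BM-LSKCD201+. Its values were 4.84, 5.56 and 5.50 FPKM across the D5-LSKCD201+ libraries, 2.58, 0.608 and 3.31 across those of D5-LSKCD201- and 0.617, 0.437 and 0.363 in mESC. The FL-LSKCD201+ and BM-LSKCD201+ values overlapped, as did those of D5-LSKCD201- and mESC, and the test of FL-LSKCD201+ against BM-LSKCD201+ was not passed (-0.05, SE 0.13, adjusted p 0.747). D5-LSKCD201+ was lower than FL-LSKCD201+, with -1.11 (SE 0.10), and than BM-LSKCD201+, with -1.16 (SE 0.11), and under quantile normalization both were under the threshold, at -0.98 and -0.86. It exceeded D5-LSKCD201- by 1.11 (SE 0.34, adjusted p 0.0236). This last call was lost without any one of the D5-LSKCD201+ libraries (adjusted p 0.0538 to 0.0684) and without D5-LSKCD201- replicate 2, when the difference was 0.68. The position deposited for Zfpm1 covers 4435365 bases and is shared with 115 other genes, among them the overlapping Gm20388, whose exons share no base with those of Zfpm1 in GENCODE M21. Whether reads were divided between these genes is not given in the sources used here. Gm20388 was at 8.44, 0 and 4.48 FPKM in D5-LSKCD201+, at 0, 3.73 and 2.18 in FL-LSKCD201+ and at 0.049, 0 and 1.42 in BM-LSKCD201+. With its FPKM added, Zfpm1 stood at 13.3, 5.56 and 9.98 in D5-LSKCD201+, and its lower levels there were no longer called against FL-LSKCD201+ (-0.63, adjusted p 0.0689) or BM-LSKCD201+ (-0.53, adjusted p 0.112), while the difference from D5-LSKCD201- was 1.72 (adjusted p 0.00555). Over the 15 sorted libraries the Pearson correlation of log2 levels was 0.975 between Zfpm1 and Gata2 and 0.480 between Zfpm1 and Gata1, a description over libraries that share groups.

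The factors of endoderm and heart, Gata4 and Gata6, were high in both day 5 populations and close to 0 in the in vivo cells. Gata4 (gene number 14463, chromosome 14, 63198922 to 63271692, minus strand) was at 34.6, 36.9 and 35.1 FPKM in the D5-LSKCD201+ libraries and at 41.5, 15.2 and 41.2 in those of D5-LSKCD201-. It was at 1.11, 1.14 and 1.38 FPKM in mESC, at 0.0452, 0.0189 and 0.0654 in FL-LSKCD201+ and at 0, 0.192 and 0.0701 in BM-LSKCD201+. The 2 day 5 groups overlapped and lay above every other library. D5-LSKCD201+ exceeded mESC by 4.05 (SE 0.07), FL-LSKCD201+ by 5.13 (SE 0.08, adjusted p 3.18e-08) and BM-LSKCD201+ by 5.07 (SE 0.09, adjusted p 6.07e-09). Against FL-LSKCD201+ and BM-LSKCD201+, Gata4 reached the filter through D5-LSKCD201+ alone, which fixed the direction, so nothing is read from those adjusted p. The difference between D5-LSKCD201+ and D5-LSKCD201- was 0.25 (SE 0.36, adjusted p 0.559), and without D5-LSKCD201- replicate 2 it turned to -0.21 (adjusted p 0.00316). FL-LSKCD201+ and BM-LSKCD201+ lay below mESC as well, with -1.08 (SE 0.08) and -1.03 (SE 0.10), but Gata4 reached the filter of these comparisons through mESC alone, which fixed the direction.

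Gata6 (gene number 14465, chromosome 18, 11052064 to 11085635, plus strand) was at 18.9, 20.1 and 20.9 FPKM in the D5-LSKCD201+ libraries and at 15.8, 12.4 and 16.6 in those of D5-LSKCD201-. All libraries of mESC, FL-LSKCD201+ and BM-LSKCD201+ were between 0 and 0.503 FPKM. The D5-LSKCD201+ values were all above those of D5-LSKCD201-, with a difference of 0.41 (SE 0.11, adjusted p 0.0154) that stayed under the threshold of 1. D5-LSKCD201+ was higher than mESC by 3.95 (SE 0.12), than FL-LSKCD201+ by 4.04 (SE 0.10) and than BM-LSKCD201+ by 4.34 (SE 0.08). D5-LSKCD201- was higher than mESC too, by 3.55 (SE 0.16) in Gata6 and by 3.80 (SE 0.36) in Gata4. In each comparison of a day 5 group with mESC or an in vivo group, Gata6 reached the filter through the day 5 group alone, which fixed the direction.

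Gata5 was low throughout, with its highest levels in the day 5 groups. Gata5 (gene number 14464, chromosome 2, 180325133 to 180334699, minus strand) was at 0.494, 0.461 and 0.499 FPKM in the D5-LSKCD201+ libraries and at 0.784, 0.497 and 0.812 in those of D5-LSKCD201-. It was listed at 0 in all 6 libraries of FL-LSKCD201+ and BM-LSKCD201+ and in 2 of the 3 mESC libraries. The only sorted comparison in which Gata5 reached the filter was that of the 2 day 5 groups, whose values overlapped, with a difference of -0.19 (SE 0.10, adjusted p 0.125). Under quantile normalization the sign turned, to 0.14. Its antisense gene Gata5os covers 7.87% of its exonic bases.

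Zfpm2 was highest in D5-LSKCD201+ and low in every other sorted group. Zfpm2 (gene number 22762, chromosome 15, 40655035 to 41104592, plus strand) was at 2.92, 3.15 and 3.02 FPKM in the D5-LSKCD201+ libraries and at 0.415, 0.0991 and 0.320 in those of D5-LSKCD201-. The mESC, FL-LSKCD201+ and BM-LSKCD201+ libraries ranged from 0 to 0.20 FPKM. D5-LSKCD201+ was higher than each other group without overlap, by 1.67 (SE 0.11, adjusted p 1.36e-05) over D5-LSKCD201-, 1.89 (SE 0.07) over mESC, 1.90 (SE 0.08) over FL-LSKCD201+ and 1.86 (SE 0.10) over BM-LSKCD201+. Zfpm2 reached the filter of all these comparisons through D5-LSKCD201+ alone, which fixed the direction, so nothing is read from the adjusted p. The pseudocount of 1 makes these differences understate the ratios of such low levels: the mean ratio to D5-LSKCD201- was 10.9.

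Counted by comparison, the day 5 CD201+ and CD201- cells differed in Gata2 and Gata3, which were above the filter in both groups, and in 3 further members whose calls were limited. In D5-LSKCD201+ against D5-LSKCD201-, Gata2, Gata3, Zfpm1 and Zfpm2 were higher, where 10.8% of all 13691 genes tested were higher, and Gata1 was lower, where 13.9% were lower. Gata1 and Gata5 reached the filter there through D5-LSKCD201- alone and Zfpm2 through D5-LSKCD201+ alone, so that a called difference was built into Gata1 and Zfpm2 and nothing is read from their count. The Zfpm1 call was lost in 4 of the 6 fits that left out a library. Against mESC, 6 of the 8 genes were higher in D5-LSKCD201+ and none was lower, beside 19.5% and 18.1% of all genes; Gata1 and Gata5 were under the filter. Of these 6, Gata2 and Gata4 were above 0.5 FPKM in both groups and the others reached the filter through D5-LSKCD201+. D5-LSKCD201- against mESC gave 4 higher (Gata1, Gata3, Gata4 and Gata6) and none lower, beside 10.9% and 3.48%. All of these but Gata4 reached the filter through D5-LSKCD201- alone. Gata2 and Zfpm1 missed the threshold of 1 there and passed it with a pseudocount of 0.1, at 1.02 and 1.73, and Zfpm1 also did without D5-LSKCD201- replicate 2, at 1.42.

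**Figure D2:**
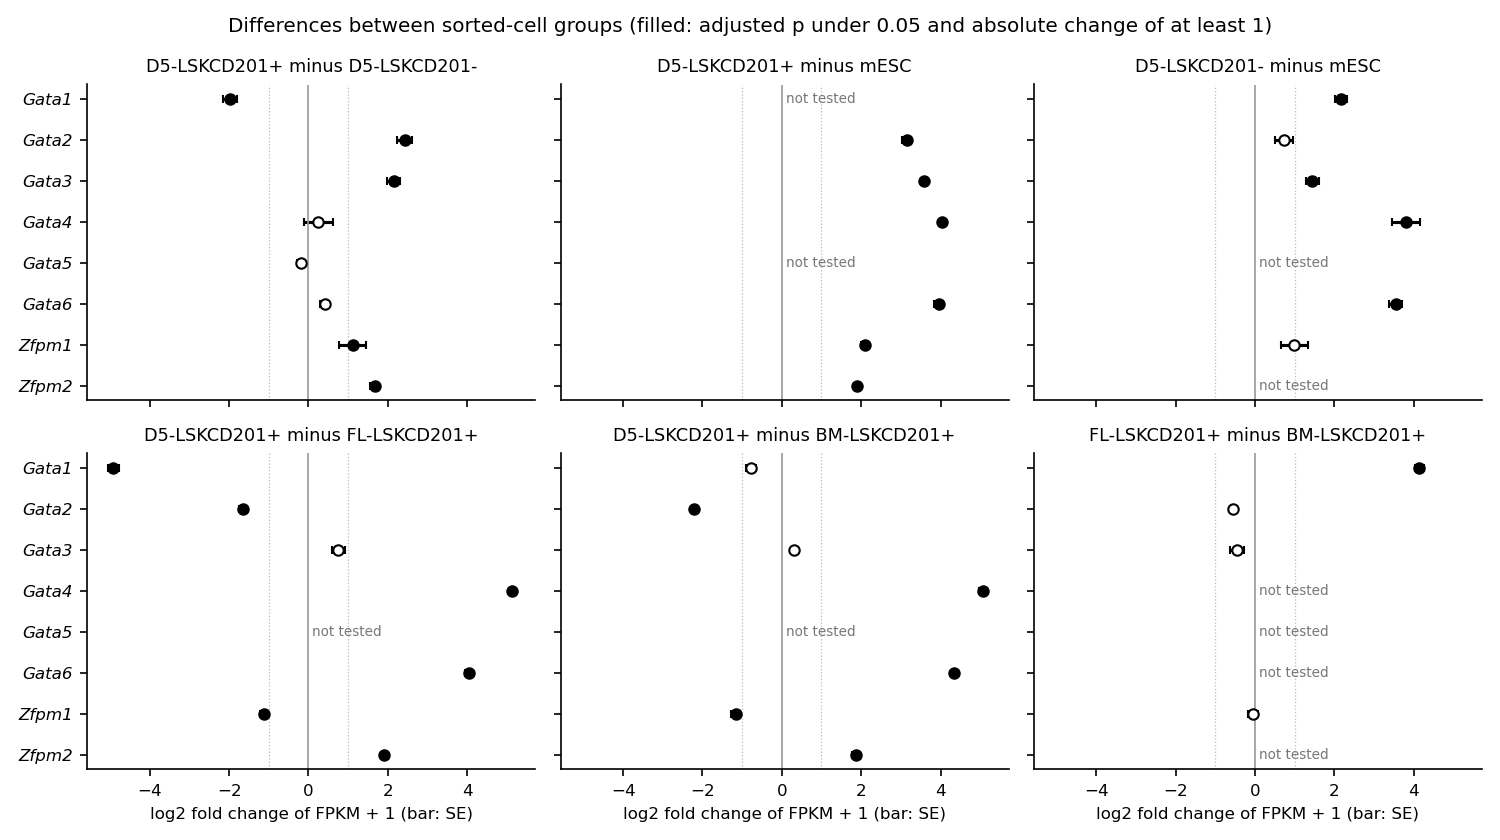
Log2 fold change of FPKM + 1 with its SE for each of the 8 genes in 6 comparisons of sorted cells, with filled points for genes called and open points for genes tested and not called. The upper left panel shows Gata1 at -1.98 opposite to Gata2 at 2.42, and the lower left and middle panels show Gata4 and Gata6 on the right and Gata2 and Zfpm1 on the left.

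Against the in vivo cells, Gata2 was lower in D5-LSKCD201+ with both groups above the filter. Compared with FL-LSKCD201+, 3 members were higher in D5-LSKCD201+ (Gata4, Gata6 and Zfpm2, beside 15.1% of all genes) and 3 lower (Gata1, Gata2 and Zfpm1, beside 19.6%). Compared with BM-LSKCD201+, the same 3 were higher (beside 17.5%) and Gata2 and Zfpm1 were lower (beside 27.2%), the Zfpm1 calls with the limit given above. In both comparisons Gata4, Gata6 and Zfpm2 reached the filter through D5-LSKCD201+ alone and Gata1 through the in vivo group alone, which fixed their direction, and nothing is read from their count. The D5-LSKCD201+ libraries are shared by all comparisons that name them. FL-LSKCD201+ against BM-LSKCD201+ gave 1 member higher, Gata1 (beside 7.78%), and none lower (beside 11.3%), and Gata4, Gata5, Gata6 and Zfpm2 were under the filter in both groups.

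The make-up of the family differed between the day 5 and the in vivo cells. Gata4, Gata5 and Gata6 together made up 61.2 ± 0.783% of the summed FPKM of the 6 GATA genes in D5-LSKCD201+ (SD, n = 3) and 81.4 ± 5.48% in D5-LSKCD201-, where the libraries gave 85.1, 75.1 and 83.9%. In the in vivo cells the share was 0.264 ± 0.101% in FL-LSKCD201+ and 0.106 ± 0.112% in BM-LSKCD201+. Gata2 alone made up 88.8 ± 0.345% in BM-LSKCD201+, 58.1 ± 1.59% in FL-LSKCD201+ and 23.0 ± 0.591% in D5-LSKCD201+. The summed level itself was 91.4 ± 3.33 FPKM for D5-LSKCD201+ and 58.5 ± 18.3 for D5-LSKCD201-, where replicate 2 stood at 37.4. It was 118 ± 12.2 FPKM in FL-LSKCD201+, 114 ± 1.35 in BM-LSKCD201+ and 3.58 ± 0.470 in mESC.

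**Figure D3:**
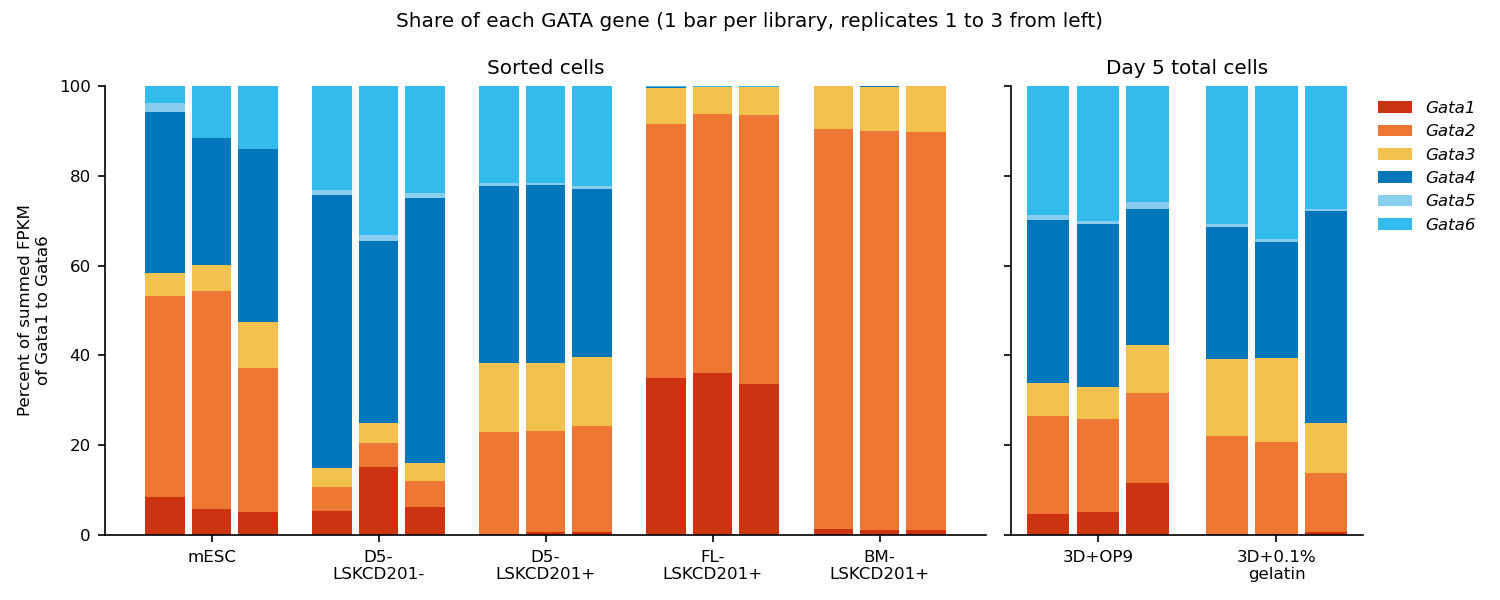
Percent of the summed FPKM of Gata1 to Gata6 taken by each gene, with 1 stacked bar per library, for sorted cells (left) and day 5 total cells (right). The warm colours (Gata1, Gata2 and Gata3) fill nearly the whole bar in FL and BM, while Gata4, Gata5 and Gata6 together fill 60.3 to 61.7% in D5-LSKCD201+.

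Partners of GATA factors in blood were read from a list of 20 genes. In D5-LSKCD201+ against D5-LSKCD201-, 8 of 20 were higher and 2 lower (1 lower under quantile normalization), with a median of 0.41 where that of all genes was -0.12. Of all genes tested, 10.8% were higher and 13.9% lower. Fli1 was at 55.9 ± 0.975 FPKM against 3.81 ± 0.732 (3.57), Lyl1 at 46.2 ± 2.32 against 3.71 ± 1.0 (3.34) and Erg at 13.4 ± 1.68 against 0.637 ± 0.0367 (3.13). Fli1 and Erg are ETS factors of endothelium and blood, and Lyl1 is a relative of TAL1. The 2 lower partners were Runx1, required for blood to emerge from endothelium, at 1.80 ± 0.353 FPKM against 5.39 ± 0.899 (-1.19), and Klf1, at 0.241 ± 0.205 against 1.73 ± 0.404 (-1.14). Klf1 reached the filter through D5-LSKCD201- alone. Cbfa2t3, among the 8 higher, did so through D5-LSKCD201+ alone, at 3.71 ± 0.426 against 0.308 ± 0.176 FPKM. Their directions were fixed, and nothing is read from their part in the counts. Against FL-LSKCD201+ no partner was higher (beside 15.1% of all genes) and 8 of 20 were lower (beside 19.6%). Against BM-LSKCD201+ none was higher (beside 17.5%) and 10 of 20 were lower (beside 27.2%). In both comparisons Klf1 reached the filter through the in vivo group alone, which fixed its direction. Lmo2, which bridges GATA factors and TAL1, was at 22.8 ± 3.47 FPKM in D5-LSKCD201+, 407 ± 15.9 in FL-LSKCD201+ and 1079 ± 61.0 in BM-LSKCD201+. Runx1 was at 42.2 ± 1.97 FPKM in FL-LSKCD201+ and 57.5 ± 5.39 in BM-LSKCD201+.

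Stem cell genes that accompany Gata2 were read in the same way. Their list shares Tal1, Lmo2, Fli1, Runx1 and Spi1 with that of the partners, so the counts of the lists are not independent. It also holds Kit, the gene of the c-kit used in sorting. Of 16 genes tested in D5-LSKCD201+ against D5-LSKCD201-, 9 were higher and 1 was lower, with Cd34 at 223 ± 3.23 FPKM against 19.7 ± 3.47 and Mecom at 22.8 ± 2.84 against 2.42 ± 0.769. Of all genes tested, 10.8% were higher and 13.9% lower. Against mESC, 13 of 15 were higher and none lower, beside 19.5% and 18.1% of all genes. Of the list, 6 genes averaged at least 1 FPKM in mESC and 14 in D5-LSKCD201+. Those that reached the filter through D5-LSKCD201+ alone, such as Nrp1, had a fixed direction, and nothing is read from their count. Against FL-LSKCD201+, 1 of 17 was higher, Nrp1 (beside 15.1% of all genes), and 11 were lower (beside 19.6%). Against BM-LSKCD201+ 1 of 17 was higher (beside 17.5%) and 12 were lower (beside 27.2%). Genes that reached the filter of these comparisons through the in vivo group alone, such as Hlf, again had a fixed direction. Nothing is read from their part in the counts. Hlf was at 0.145 ± 0.0392 FPKM in D5-LSKCD201+, 25.6 ± 1.29 in FL-LSKCD201+ and 78.4 ± 7.02 in BM-LSKCD201+, and Hoxa9 was at 1.24 ± 0.137, 73.1 ± 11.3 and 107 ± 5.68. Endothelial genes stood beside these: 14 of 15 were higher there than in D5-LSKCD201- and none lower, and their sum was 2599 to 2637 FPKM against 263 to 276. Their part in the Gata2 and Gata3 levels was not tested.

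Endoderm and heart genes, the known company of Gata4, Gata5 and Gata6, were spread over both day 5 populations. Of 24 endoderm genes tested, 7 rose and 12 fell from D5-LSKCD201- to D5-LSKCD201+, beside 10.8% and 13.9% of all genes. The genes with the largest rises were Col4a1 (412 ± 27.8 FPKM against 34.4 ± 20.1) and Col4a2 (178 ± 5.71 against 15.2 ± 8.27), basement membrane collagens that endothelium also makes, and the largest falls were Spink1 (4.54 ± 0.430 against 137 ± 25.1) and Amn (0.279 ± 0.289 against 15.3 ± 2.83). The summed endoderm level was nevertheless higher in D5-LSKCD201+ (3563 to 3730 FPKM against 1783 to 1881), with Sparc, a matrix protein made by many cell types, at 1414 ± 18.3 against 333 ± 2.72 FPKM, while the median log2 fold change over the list was -0.99. Foxa2, an endoderm factor, had 17.9 ± 3.21 FPKM among D5-LSKCD201- and 0.656 ± 0.113 among D5-LSKCD201+ libraries. Of 15 heart genes tested between the same populations, 3 rose and 8 fell, among them Myl7, at 0.718 ± 0.166 against 31.8 ± 2.90 FPKM, and Mesp1, at 0.258 ± 0.189 against 10.9 ± 1.29. In D5-LSKCD201+, 13 endoderm and 7 heart genes averaged at least 1 FPKM, and in D5-LSKCD201- 23 and 14 did. Genes that reached the filter through 1 day 5 group alone, such as Amn and Mesp1, had a fixed direction. Nothing is read from their part in these counts. Against mESC, D5-LSKCD201- had 20 of 25 endoderm genes and 12 of 15 heart genes higher and none lower, beside 10.9% and 3.48% of all genes. In mESC, 8 endoderm and 2 heart genes averaged at least 1 FPKM. The direction of genes that reached the filter through D5-LSKCD201- alone was fixed, and nothing is read from their count. Other genes with GATA-type fingers or of their repressor complex, such as Gatad2a and Mta3, gave 1 call of 8 between the day 5 groups, Mta3, which was lower in D5-LSKCD201+ (15.2 ± 0.508 against 51.4 ± 9.48 FPKM, -1.68). With 13.9% of all genes lower there, nothing is read from this count about these genes as a group. The remaining lists were read for other cells that express GATA genes. Of 8 megakaryocyte genes tested between the day 5 groups, 4 were higher in D5-LSKCD201+ and none lower, of 9 trophoblast genes 1 was higher and 8 were lower, and all 12 pluripotency genes were lower. The shares of all genes were 10.8% higher and 13.9% lower, and genes above the filter in 1 group alone had a fixed direction. By limma 0 of 2 mast cell and basophil genes (1 higher under quantile normalization) and 0 of 9 myeloid genes passed, with 2 of each list at an unadjusted p under 0.05.

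**Figure D4:**
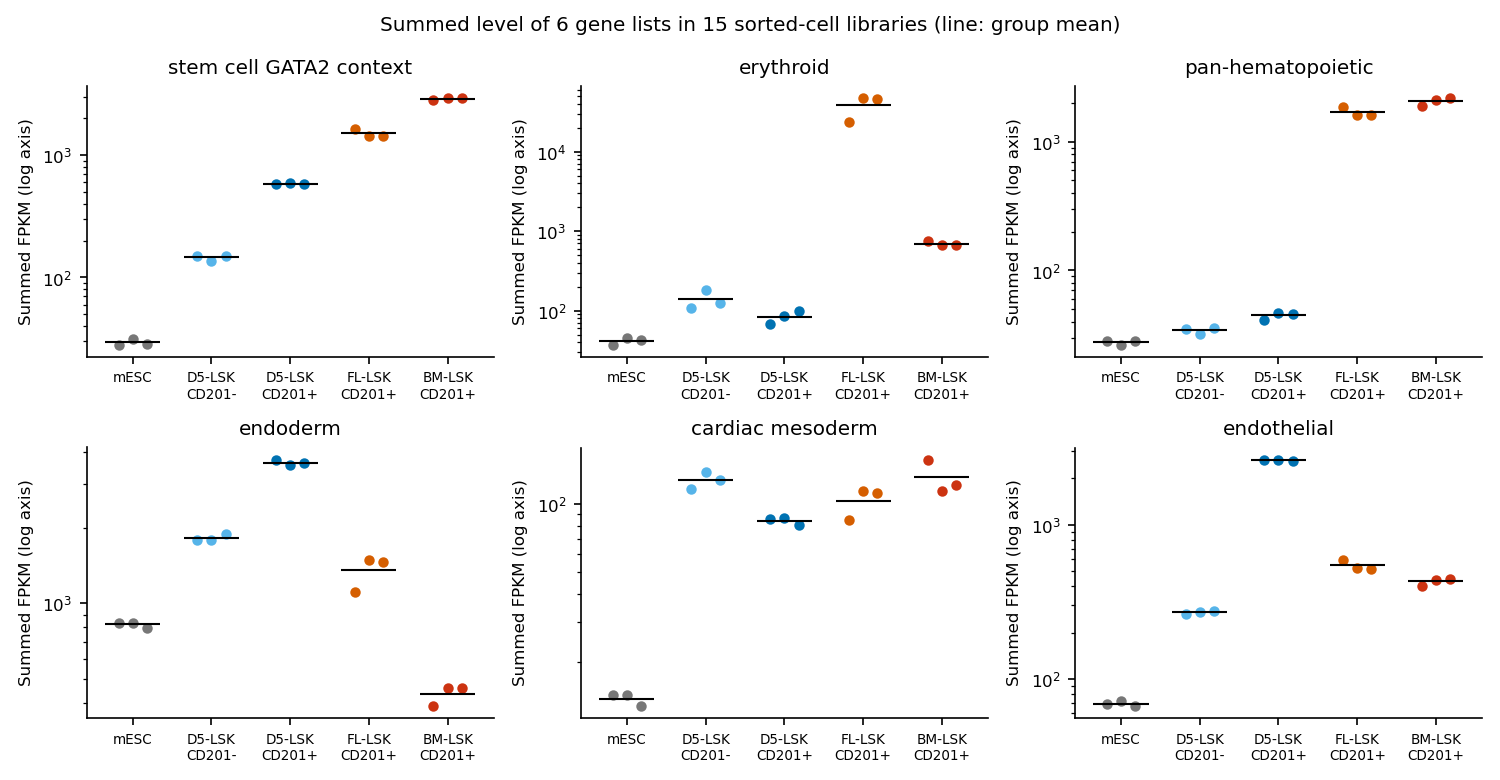
Summed FPKM of 6 gene lists (log axes) in the 15 sorted libraries, with 1 point per library and a line at the group mean. Day 5 cells stay at 32.1 to 47.1 FPKM in the pan-hematopoietic panel while D5-LSKCD201+ exceeds all other groups in the endothelial and endoderm panels, the latter with Sparc at 1414 FPKM and Col4a1 at 412 FPKM among its summands.

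Total cells of the coculture addressed the effect of OP9 cells on the same genes. Of the 8 members, 2 were higher in 3D+OP9 than in 3D+0.1% gelatin, where 2.11% of all 12958 genes tested were higher, and none was lower, where 0.509% were. Gata1 reached the filter through 3D+OP9 alone, so that its direction was fixed and nothing is read from its count, which leaves Zfpm1. Gata1 was at 3.22, 4.01 and 4.62 FPKM in 3D+OP9 and 0.05, 0.08 and 0.24 in 3D+0.1% gelatin, without overlap, a difference of 2.13 (SE 0.15, adjusted p 7.22e-04). Zfpm1 was at 36.2, 42.0 and 28.0 FPKM against 15.5, 9.87 and 10.3, also without overlap (1.50, SE 0.20, adjusted p 0.00624). Gata2 was at 15.04, 15.86 and 8.05 FPKM against 9.53, 7.28 and 4.81, and the groups overlapped because of 3D+OP9 replicate 3 (0.76, SE 0.29, adjusted p 0.176). Without that library Gata2 was called, at 1.04 (adjusted p 0.0238).

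The other members did not pass the test in total cells. Gata4 was at 24.9, 27.9 and 12.2 FPKM in 3D+OP9 against 12.8, 9.23 and 17.2 (0.65, SE 0.32, adjusted p 0.286), and Gata6 at 19.9, 23.0 and 10.4 against 13.3, 12.1 and 9.95 (0.49, SE 0.27, adjusted p 0.327). In both genes replicate 3 was the lowest of the 3D+OP9 libraries. Without it the difference was 0.998 (adjusted p 0.0247) in Gata4 and 0.82 (adjusted p 0.00879) in Gata6, still under the threshold of 1, and without replicate 2 it was 0.43 and 0.27. Gata3 was at 4.94 ± 0.633 FPKM against 6.02 ± 1.77 (-0.21, adjusted p 0.586) and Zfpm2 at 1.25 ± 0.391 against 1.06 ± 0.301 (0.12, adjusted p 0.729). Gata5, at 0.640 ± 0.0557 against 0.237 ± 0.0666 FPKM without overlap, was under the filter and not tested. Gata4, Gata5 and Gata6 made up 63.6 ± 5.07% of the GATA sum in 3D+OP9 and 65.5 ± 8.27% in 3D+0.1% gelatin. The ratio of Gata1 to Gata2 was 0.214, 0.253 and 0.574 in 3D+OP9 and 0.00525, 0.0110 and 0.0499 in 3D+0.1% gelatin, without overlap.

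**Figure D5:**
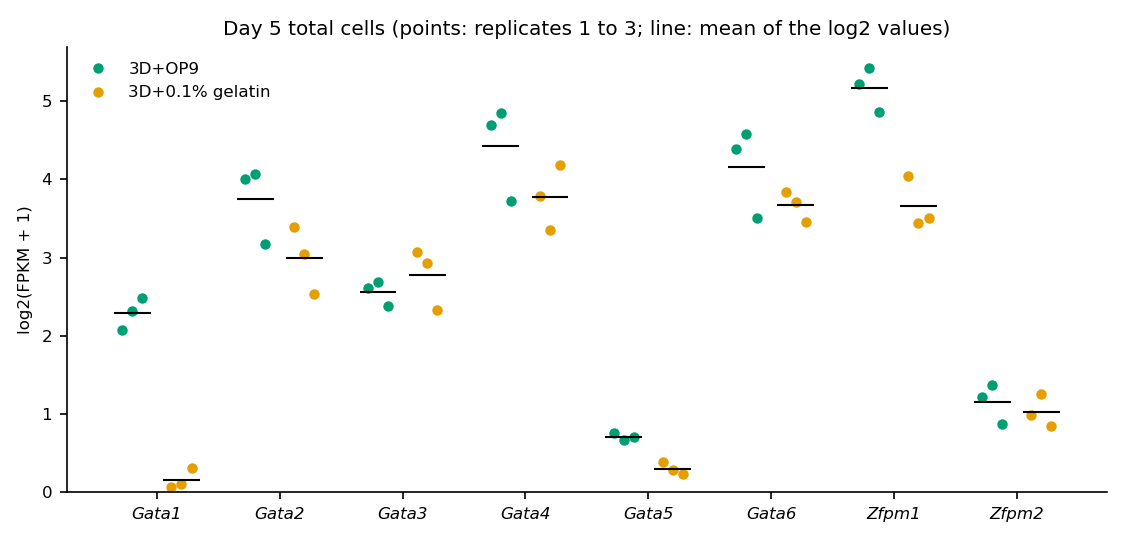
Log2(FPKM + 1) of the 8 genes in day 5 total cells, with 1 point per library and a line at the mean, for 3D+OP9 and 3D+0.1% gelatin. Gata1 and Zfpm1 separate the groups by 2.13 and 1.50 on this scale, and the points of Gata2, Gata3, Gata4, Gata6 and Zfpm2 overlap.

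Beside Gata1, 9 of 15 erythroid genes tested were higher in 3D+OP9 and none lower, led by Hbb-bh1 (242 ± 155 FPKM against 2.48 ± 3.98, 6.56). All list counts here stand beside 2.11% of all genes higher and 0.509% lower. In the erythroid list 13 genes averaged at least 1 FPKM in 3D+OP9 and 6 in 3D+0.1% gelatin. Genes of any list that reached the filter through 3D+OP9 alone, such as Hba-a2 at 0.24 FPKM on gelatin, had a fixed direction. Nothing is read from their count. Of the GATA partners, 8 of 20 were higher and none lower, among them Tal1, the bHLH factor of the GATA complex, at 10.7 ± 1.68 against 1.63 ± 0.861 FPKM (2.19), and Erg, at 4.12 ± 0.800 against 0.163 ± 0.0850 (2.13). Of the stem cell genes 10 of 16 were higher, and of the lymphoid genes 0 of 11 passed in either direction (limma), with 3 at an unadjusted p under 0.05 and 1 higher without 3D+OP9 replicate 3. Endothelial genes were higher too, 11 of 14 with none lower, with sums of 152.5 to 188 against 36.1 to 54.0 FPKM and Cdh5, a junction protein of endothelium, at 28.5 ± 3.38 against 1.73 ± 0.965 (3.49). Of 6 megakaryocyte genes 4 were higher, of 16 heart genes 4 and of 12 pluripotency genes 3, and none of these was lower. Without 3D+OP9 replicate 3, again 3 pluripotency genes were higher, and 1 was lower. Pou5f1, which had no call, averaged 388 ± 99.4 FPKM on OP9 and 624 ± 39.6 on gelatin (SD, n = 3 each). The pluripotency genes summed to 902 and 912 FPKM in 2 of the OP9 libraries, under the 1327 to 1404 on gelatin, and to 1741 in replicate 3. The total cells on OP9 may hold RNA of the stromal cells, and 17 stromal genes summed to 354 to 522 FPKM in 3D+OP9 and 379 to 479 in 3D+0.1% gelatin. Of the 14 stromal genes tested, 3 were higher and 1 lower. The part of endothelial and stromal cells in the GATA differences was not tested.

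The genes whose levels over the 15 sorted libraries were most like those of each member were taken by Pearson correlation of log2 values, among 14456 genes, as a description of libraries that share groups and normalization. For Gata1 they included Apoa1 and Tmod1 (r 0.975 and 0.966), of which Apoa1, an apolipoprotein of liver, averaged 119 FPKM in FL-LSKCD201+ and 0.246 in BM-LSKCD201+. For Gata2 they were Il16, Gimap5 and Hcls1 (r 0.995, 0.995 and 0.994), which averaged 38.2 to 67.4 FPKM in FL-LSKCD201+ and 67.0 to 120 in BM-LSKCD201+. Gata3 was most like Tnfrsf1a, S1pr1 and Nfatc1 (r 0.993, 0.993 and 0.991), all higher in D5-LSKCD201+ than in the other groups by their means.

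Gata4 was most like Lhfp, Col6a2 and Col6a1 (r 0.993, 0.992 and 0.992), of which the collagen VI genes averaged 17.6 and 19.4 FPKM in D5-LSKCD201+ and both 14.9 in D5-LSKCD201-. Gata6 was most like Scara3, Sema3a and Fam163a (r 0.998, 0.997 and 0.993). Zfpm1 was most like Mapkapk2, Ppp3ca and Epb41 (r 0.993, 0.985 and 0.985), and Zfpm2 like Sost, Magel2 and Gja5 (r 0.995, 0.995 and 0.994), of which Gja5, an arterial connexin, averaged 135 FPKM among D5-LSKCD201+ and 1.61 among D5-LSKCD201- libraries. Within the family the closest pairs were Gata4 and Gata6 (r 0.985), Gata2 and Zfpm1 (0.975) and Gata4 and Gata5 (0.964), and Gata1 had no r above 0.480 with any other member.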

How the data were processed

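Only FPKM values deposited by the authors were used. By the methods, reads were aligned to GRCm38 with HISAT2 and quantified with StringTie, and Cuffdiff was used for testing. The submitters' processing notes name HISAT2 2.0.5, StringTie 1.3.3 and Cuffdiff 1.3.0, and mm9 beside GRCm38. Positions are those of GENCODE M21 of GRCm38. The sorted-cell table gave the same spans for Gata1, Gata2, Gata3 and Gata4 and others for Gata5, Gata6, Zfpm1 and Zfpm2. No counts were used, so no interval is given for single values.

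Groups followed the sample labels. Values were analysed as log2(FPKM + 1). Genes averaging 0.5 FPKM or more in the 6 libraries of a comparison were tested with limma 3.58.1 (trend, two-sided) in R 4.3.3, with Benjamini-Hochberg adjustment over all genes tested. An exact permutation test of 3 against 3 libraries cannot give p under 0.1. Text named all 8 members, up to 4 called genes with the largest changes per list, and the 3 genes most like each member with a group mean of at least 1 FPKM. One item under this rule is not reported here. Genes named outside that rule (Nanog, Pou5f1, Afp, Procr, Ptprc, Gm20388, and Foxa2, Runx1, Klf1, Cbfa2t3 and Sparc between the day 5 groups) were chosen after their values were seen. The members and the 15 gene lists were chosen with earlier results of these data known. The code was tested on simulated data. Promoters came from RefSeq. Python 3.11.15 with matplotlib 3.10.9 made the plots.

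Same-numbered libraries were checked for pairing. Only FL-LSKCD201+ and BM-LSKCD201+ had correlations of deviations over 0.1 for each number (0.24, 0.20 and 0.16), with no source for a pairing in the labels.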

Additional observations from a re-analysis of the deposited data

How the results depend on the processing

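Of 582 single-gene values recomputed under the alternatives (pseudocount 0.1, no filter, a filter at 1 FPKM, quantile normalization, the replicate block, a constant prior variance, one fit over the sorted groups, Gm20388 added to Zfpm1 and leaving out each library), 561 kept their direction and their side of the threshold, and of 97 recomputed counts of members called 96 stayed within 1.5 times. With the adjusted p alone, 2 members in place of 1 were called between FL-LSKCD201+ and BM-LSKCD201+. Leaving out single libraries left 2 to 3 members called in 3D+OP9 against 3D+0.1% gelatin and 4 to 5 in D5-LSKCD201+ against D5-LSKCD201-. The sign turned for Gata5 between the day 5 groups under quantile normalization (0.14), for Gata4 between them when a library was left out (-0.21 to 0.48) and for Zfpm1 between FL-LSKCD201+ and BM-LSKCD201+ under quantile normalization (0.11), with Gm20388 added (0.10) and with a library left out (-0.14 to 0.037). The Zfpm1 call between the day 5 groups was also lost with no filter on low values (adjusted p 0.100). The cause was not tested. Quantile normalization moved the median over all genes in D5-LSKCD201+ against BM-LSKCD201+ from -0.23 to -0.02. With the replicate block, 1 member was called between FL-LSKCD201+ and BM-LSKCD201+ and 2 in the coculture comparison, as without it, and the block changed no other call. With Gm20388 added, Zfpm1 was called in D5-LSKCD201- against mESC (1.06) and lost its calls in D5-LSKCD201+ against both in vivo groups; this setting and the list counts under quantile normalization and without the libraries that stood apart were added after seeing the data.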
